A study of Rattus norvegicus with 16 samples.

Results

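The cytosolic ribosomal protein genes are described here across the right ventricles of female rats that did or did not carry estrogen receptor alpha and had or had not been loaded with pressure. Members were taken by symbol, as Rps or Rpl with a number and an optional a or x, plus Rplp0, Rplp1, Rplp2 and Rpsa, with a count of at least 10 in at least 4 libraries. Of 86 entries that match, 76 passed, among 32754 entries in all, and 30 of the 76 belong to the small and 46 to the large ribosomal subunit. The rule used no comparison between groups. The 76 entries carry 72 symbols, since Rpl21, Rpl32, Rpl7a and Rps29 each have a pair of entries that passed, and both Rpl7a entries hold identical counts in all 16 libraries. The 10 entries left out had at most 9 counts in any library, and 1 of them is Rps6, which encodes the small subunit protein phosphorylated by S6 kinase and is listed at 0 counts in every library. All 76 members passed the filter on low counts and are among the 13458 genes tested.

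RNA was taken from the right ventricle of Sprague Dawley females aged 20 to 21 weeks. The animals were wild type (WT) or ERalpha -/- (KO, a mutation of the estrogen receptor alpha gene Esr1 whose construction the labels do not describe), and had sham surgery (SHAM) or pulmonary artery banding (PAB) for 10 weeks, which narrows the outflow of the right ventricle. The 2 genotypes and 2 surgeries give 4 groups of 4 libraries, and a library is called by its group and number (WT SHAM 1). Whether the libraries of a group come from different animals is not stated in the labels, and p-values here describe the scatter between these libraries, which may be technical.

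A ribosome is built from a small subunit, which reads the mRNA, and a large subunit, which joins amino acids, and each is assembled from ribosomal RNA and its proteins in set proportions. Most mRNAs of these proteins start with a run of pyrimidines, the 5′ terminal oligopyrimidine (TOP) motif, through which growth signals of the mTORC1 pathway control their translation as a group. In heart muscle, ribosome content is a known part of growth under load, and it is set by transcription of ribosomal RNA, by assembly factors and by the supply of these proteins.

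The annotated transcript starts show the feature that the family shares. Sequences were read from RefSeq promoters (rat build GRCr8) in windows of 30 bases, 10 before and 20 from the start base on, and capitals mark the unbroken run of C and T that begins at the start base. Of the 72 symbols, 57 matched, with 58 windows. A run of at least 5 pyrimidines began at the start base in 31 of the 58 windows (53.4%), against 1590 of 33469 windows of all genes (4.75%), and the start base was C in 55.2% against 24.1%. The 8 windows below were picked from members named in the text, 7 with such a run and 1, Rps3, without it. They do not reflect the share of 31 in 58. Other named members had shorter runs, of 0 bases in Rps16, Rpl24, Rpl11, Rpl13a, Rpl41, Rpl21 and Rpl7a. The run was 1 base in Rplp2, Rpl36 and Rps2, 2 in Rpl5 and Rpsa and 4 in Rps4x. Rps9, Rps15, Rps21 and Rpl37, also named, had runs of 5 to 8 bases.
Rpl37a, chr9:81748081-81748110, plus strand: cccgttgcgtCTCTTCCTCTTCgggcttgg
Rpl10, chrX:157205840-157205869, plus strand: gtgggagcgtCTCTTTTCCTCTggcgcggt
Rps18, chr20:4933735-4933764, plus strand: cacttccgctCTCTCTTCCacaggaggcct
Rps23, chr2:23814507-23814536, plus strand: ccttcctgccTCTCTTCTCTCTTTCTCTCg
Rpl27a, chr1:172974563-172974592, plus strand: cttggtgggcTCCTCCCTCTTTCTTTTCTg
Rplp0, chr12:46718371-46718400, minus strand: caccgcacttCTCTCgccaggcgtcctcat
Rpl3, chr7:113507971-113508000, minus strand: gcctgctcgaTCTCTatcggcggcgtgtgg
Rps3, chr1:163195757-163195786, minus strand: ttcagcggcgCgcggcagcaagatggcggt
The annotated start need not be the base that the ventricle uses, and a run is a description of these letters only.

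Libraries held 22168110 to 34718633 counts, of which mitochondrially encoded transcripts took 33.9% to 43.2%. Levels are given as CPM, counts scaled to the library total with the TMM factors of edgeR. Esr1 checks the genotype: WT SHAM had 4.31 ± 0.824 CPM (mean ± SD, n = 4) and WT PAB 3.80 ± 1.00, while KO SHAM had 0.541 ± 0.0780 and KO PAB 0.371 ± 0.102. The sham libraries WT SHAM 2, WT SHAM 3 and KO SHAM 4 stood apart. Their summed mesothelial markers were at 83.5 to 166 CPM against 21.3 to 48.9 in the other 13 libraries, summed smooth muscle and pericyte markers at 1250 to 3359 against 467 to 735, and summed fibroblast markers at 2387 to 3871 against 979 to 2266. Of the listed markers, 10 of 11 mesothelial, 9 of 9 fibroblast, 8 of 10 macrophage, 7 of 10 adipocyte and 5 of 10 smooth muscle and pericyte genes were higher in these 3 libraries than in all 5 other sham libraries, as were 1 of 10 lymphocyte, 0 of 7 endothelial and 0 of 10 cardiomyocyte genes. Adipoq, which fat cells secrete, was at 11.1 to 45.6 CPM in the 3 and at 0 to 5.21 in the other 13, while the adipocyte list summed to 2108 to 2813 CPM against 2383 to 3641. No marker of these lists was at 0 in every library. Cardiomyocyte markers summed to 38977 to 53493 CPM in the 3 and to 56500 to 74332 in the others. Member medians and counts at an unadjusted p that rest on these libraries are given with and without them, the part of cell makeup in them was not tested, and in bulk tissue fewer cells of a type cannot be told apart from less RNA per cell.

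Summed over members, ribosomal protein counts were on average highest in WT SHAM. Their share of all counts was 1.298% ± 0.215 for WT SHAM (SD, n = 4) and 1.06% ± 0.0678 for WT PAB. The KO groups had 1.099% ± 0.0852 without and 1.04% ± 0.0644 with banding. By library the share overlapped between groups. WT SHAM 2, among the sham libraries that stood apart, had 1.60%. WT SHAM 4 had 1.09%, below KO SHAM 1 (1.14%), KO SHAM 4 (1.18%), WT PAB 1, WT PAB 2 and KO PAB 3. As CPM, the sum was 12246 ± 528 for WT SHAM and 10954 ± 701 for WT PAB, and 10977 ± 971 for KO SHAM and 10664 ± 456 for KO PAB. Relative to the mean over the 16 libraries, these sums are 109%, 97.7%, 97.9% and 95.1%. The 95% binomial interval (Wilson) of a library's share was at most 0.00468 percentage points to either side, which covers counting error only and is far less than the spread between libraries.

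The members varied together from library to library, and the 4 WT SHAM libraries were high together. Of 76 members, 70, 68, 64 and 69 were above their own median over the 16 libraries in WT SHAM 1 to 4. The counts were 55, 28, 4 and 49 in WT PAB, 52, 40, 15 and 6 in KO SHAM, and 40, 2, 11 and 35 in KO PAB. WT SHAM lay above every other library in this count, whereas each of the other groups held both a library with at least 40 members above their median and one with at most 6. The 3 sham libraries with much mesothelial RNA went both ways in this count, with 68 and 64 members above their median in WT SHAM 2 and 3 and 6 in KO SHAM 4. This split holds for CPM and not for the share of all counts. By share KO SHAM 4 was the highest of its group (1.18%), beside 1.60% and 1.29% in WT SHAM 2 and 3. Its summed CPM, after division by a TMM factor of 1.189, was the lowest of its group (9965). The TMM factor of WT SHAM 2 was 1.239. The first principal component of the members' log2 CPM held 43.0% of their variance, and 74 of 76 had one sign on it. Counts of members below are therefore counts of genes that vary together, not of independent replicates.

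**Figure D1:**
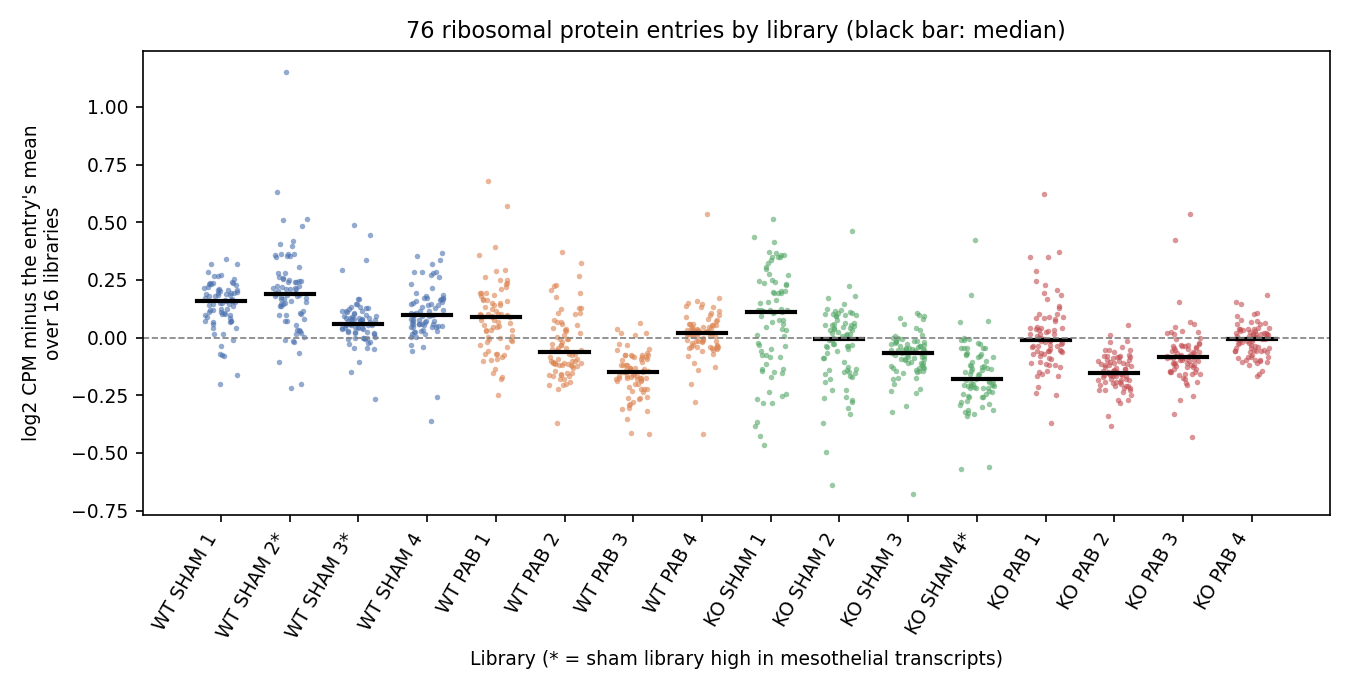
Each point is 1 of the 76 entries and gives its log2 CPM minus its own mean over the 16 libraries, by library (x axis), with colours for the 4 groups and black bars for the median. The medians of the 4 WT SHAM libraries are all above 0, from 0.06 to 0.19, and those of the other groups run from −0.18 (KO SHAM 4) to 0.11 (KO SHAM 1).

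Loss of ERalpha without load was compared in KO SHAM against WT SHAM. Most ribosomal protein genes were slightly lower in KO SHAM, none of them past the adjusted test. Of the members, 74 of 76 had a log2 fold change below 0 (53.9% of all tested genes did), and the median was −0.15, or 90.2% of the WT SHAM level, against −0.02 over all genes. None of the 76 passed the test of edgeR at an adjusted p below 0.05, where 0.00743% of all genes (1 gene) did; DESeq2 and limma-voom also called 0 members. At an unadjusted p below 0.05, 24 members were lower (1.15% of all genes were) and none was higher (0.877%). In 18 members all 4 KO SHAM libraries lay below all 4 WT SHAM libraries (0.750% of all genes), and in none above (0.505%). Of the 155 genes lower at an unadjusted p below 0.05, 24 were members (15.5% of those genes, 31.6% of the members), while members were 0.565% of the genes tested. Without the 3 sham libraries the median was −0.10, against 0.01 over all genes, 63 members were below 0, and 18 were lower at an unadjusted p below 0.05 beside 4.35% of all genes in either direction. With single libraries left out, the count of 24 ran from 16 to 35.

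Rps16, whose tail reaches the tRNA in the decoding region, was at 167, 227, 201 and 165 CPM in WT SHAM and at 164, 155, 136 and 135 in KO SHAM. Its highest KO library was just below its lowest WT library, at a log2 ratio of −0.37 (SE 0.12, adjusted p 0.996). Rplp0, the base of the stalk that recruits elongation factors, was at 519.6, 468, 499 and 519 CPM in WT SHAM and at 431, 382, 438 and 451 in KO SHAM. It too did not overlap (−0.24, SE 0.09, adjusted p 0.996). Rpsa, a small subunit protein also known as a laminin receptor, gave −0.19 (SE 0.09, adjusted p 0.996), and Rpl13a, known for a role outside the ribosome in interferon-driven silencing of translation, gave −0.22 (SE 0.10, adjusted p 0.996). Rps15, of the head of the small subunit, gave −0.38 (SE 0.16, adjusted p 0.996), with 96.2, 78.3, 88.8 and 103 CPM in WT SHAM and 62.7, 59.6, 71.1 and 88.3 in KO SHAM. Its KO SHAM 4 library was within the range of WT SHAM.

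The large subunit proteins that form a complex with 5S RNA and bind MDM2, Rpl5 and Rpl11, were closer between genotypes. Their log2 fold changes were −0.08 (SE 0.10) and −0.12 (SE 0.09), with adjusted p of 0.996 for each. Rps9, near the entry of the mRNA, and the second entry of Rpl32 were the members with values above 0. Rps9 was at 198, 235, 188 and 223 CPM in WT SHAM and at 270.5, 215, 225 and 207 in KO SHAM, so that the groups overlapped (0.12, SE 0.10, adjusted p 0.996). Rpl24, of the large subunit, was next at −0.01 and rested on single libraries, since it was 0.10 without KO SHAM 4 and 0.07 without the 3 sham libraries.

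**Figure D2:**
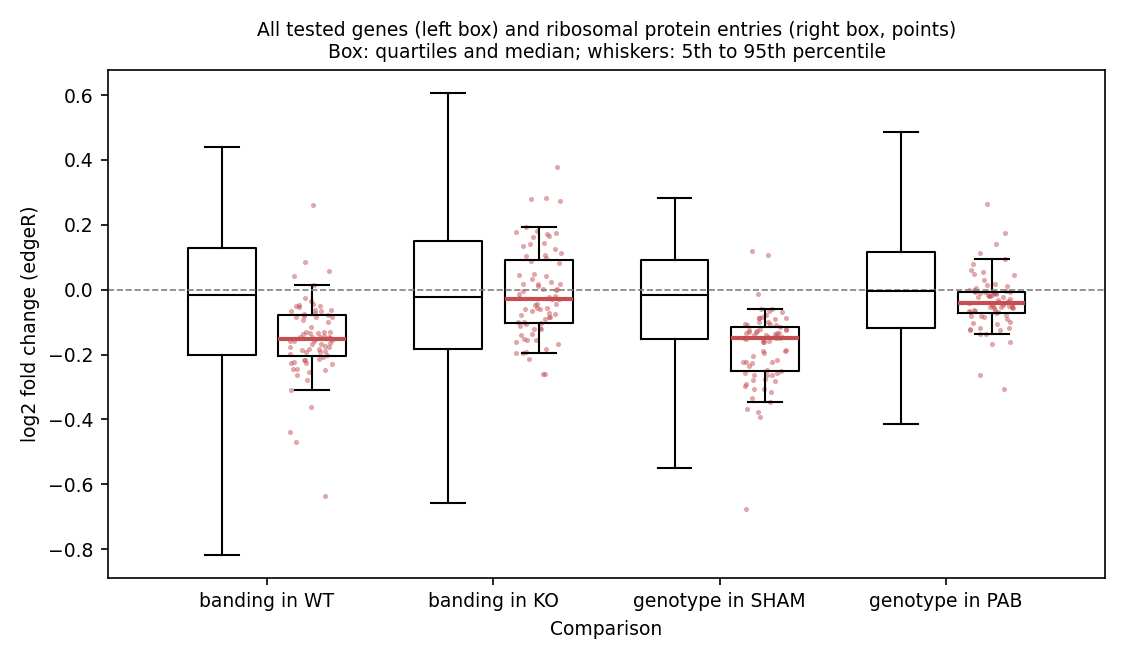
Log2 fold changes (y axis) of all 13458 tested genes (left box of each pair) and of the 76 ribosomal protein entries (right box, with points) in 4 comparisons (x axis); boxes give the quartiles and median, whiskers the 5th to 95th percentile. The member medians are −0.15 for banding in WT and for genotype in SHAM, and −0.03 and −0.04 for banding in KO and genotype in PAB.

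Pressure load in WT was compared in WT PAB against WT SHAM, which uses the same WT SHAM libraries as the comparison above. The median log2 fold change of the members was −0.15, or 90.03% of the WT SHAM level, against −0.02 over all genes, and 71 of 76 were below 0 (53.0% of all genes). With edgeR 0 members passed (0.00743% of all genes), against 1, Rps18, with DESeq2 (108 of 13458 genes) and 0 with limma-voom. At an unadjusted p below 0.05, 15 were lower (6.26% of all genes) and 0 higher (5.45%). Members whose 4 banded libraries lay below all 4 sham libraries numbered 13 (2.33% of all genes), and none lay above (2.60%). Without the 3 sham libraries the median was −0.14, with 11 members at an unadjusted p below 0.05 beside 7.47% of all genes. The count of 15 rested on single libraries: it was 5 without WT PAB 3, 6 without WT SHAM 2, 9 without WT SHAM 1 and 23 without KO SHAM 1 or KO SHAM 4, which are in neither of the groups compared. In a fit of only the groups compared it was 6.

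Rps18, in the head of the small subunit, had the smallest unadjusted p in WT, 0.00482 (adjusted p 0.326 in edgeR, 0.0459 in DESeq2), and is named here after its values were seen. It was at 252, 313, 260.4 and 286 CPM in WT SHAM, 232, 236, 219 and 229 in WT PAB, 232, 221, 223 and 207 in KO SHAM and 218, 212, 237 and 243 in KO PAB. Every WT SHAM library was above all 12 others. Its log2 fold change was −0.28 (SE 0.08) for banding in WT, 0.04 (SE 0.08) for banding in KO and −0.33 (SE 0.08) for genotype in SHAM. Rps23, a protein of the decoding centre that was also picked after its values were seen, had a log2 fold change of −0.25 (SE 0.09) for banding in WT and −0.25 (SE 0.09) for genotype in SHAM. Rps23 was at 155, 188, 154 and 150.1 CPM in WT SHAM, 149, 136, 120.1 and 138 in WT PAB and 144, 137, 139 and 127 in KO SHAM. Its WT SHAM libraries, from 150.1 CPM up, lay above the 12 others.

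In KO the members were spread around 0. KO PAB against KO SHAM had a member median of −0.03 against −0.02 over all genes, with 43 of 76 below 0 (53.7% of all genes). No member passed the adjusted test with edgeR, DESeq2 or limma-voom, where 0.632% of all genes passed with edgeR. At an unadjusted p below 0.05 there were 0 members with edgeR (15.6% of all genes) and 4 with DESeq2 (16.1% of all genes). The groups did not overlap in 5 members. Rps3 was lower (4.32% of all genes), and the other 4, Rplp0, Rpl27a, the first entry of Rps2 and the second of Rps29, were higher (5.86%). Rplp0, which had been lower in KO SHAM than in WT SHAM, was at 530.1, 469, 456 and 473 CPM in KO PAB, close to the 540.1, 509, 449 and 459 of WT PAB. Without the 3 sham libraries, of which KO SHAM holds 1, the KO median was −0.07, and 14 members had an unadjusted p below 0.05, 11 lower and 3 higher, beside 23.4% of all genes; without KO SHAM 4 alone there were 12.

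Averaged over genotypes, 1 member fell with banding. Rpl37a, a zinc-binding protein of the large subunit, gave −0.25 (SE 0.07, adjusted p 0.0485) on the log2 scale in edgeR, in a comparison that called 5.09% of all genes, and 1.85% of all genes as lower. It was at 170.1, 193, 159 and 168 CPM in WT SHAM and 139.8, 130.0, 141 and 145 in WT PAB, which did not overlap, and at 181, 155, 151 and 134 in KO SHAM and 129, 129, 141 and 148 in KO PAB, which did. The log2 fold change was −0.31 (SE 0.10) in WT and −0.18 (SE 0.10) in KO. This call sits at the threshold: over 24 alternative fits its adjusted p ran from 0.00828 to 0.104 and missed 0.05 in 20, while its log2 fold change stayed between −0.27 and −0.20.

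The members behind Rpl37a in the averaged comparison had smaller or noisier differences. The member median was −0.11 against −0.02 over all genes, 57 of 76 were below 0 (54.7% of all genes), and 14 were lower at an unadjusted p below 0.05 (11.8%). Without the 3 sham libraries the median was −0.11 against 0.01, 58 were below 0, and 24 were lower at an unadjusted p below 0.05, beside 24.8% of all genes in either direction. Leaving out 1 library moved the count of 14 to 33 without KO SHAM 4, to 6 without KO PAB 2 or WT PAB 3, and to 7, 8 and 9 without KO SHAM 1, WT SHAM 2 and KO SHAM 2. Rps3, which lines the entry of the mRNA and also has a role in DNA repair, was the only member whose banded libraries lay below the sham libraries in both genotypes. It was at 235, 268, 226 and 218 CPM in WT SHAM, 214, 192, 188 and 205 in WT PAB, 240.0, 218, 202 and 199.8 in KO SHAM and 195, 181, 195 and 195 in KO PAB. Its averaged log2 fold change was −0.21 (SE 0.06, adjusted p 0.0667) in edgeR. Of all genes, 2.33% in WT and 4.32% in KO were lower without overlap. The share that was so in both genotypes is not given here, so Rps3 is not set apart from it. Rpl10, which joins the large subunit late in its maturation, was at 536, 515, 462 and 523 CPM in WT SHAM, 399.6, 393, 448 and 476 in WT PAB, 573, 468, 476 and 353 in KO SHAM and 399, 382, 386 and 396 in KO PAB. The KO SHAM libraries spread from the highest to the lowest value of the 16, and the averaged value was −0.25 (SE 0.09, adjusted p 0.0983). Rpl7, of the large subunit, and Rps4x, the X-linked small subunit protein, gave −0.22 (SE 0.07, adjusted p 0.0937) and −0.21 (SE 0.08, adjusted p 0.122). Without the 3 sham libraries 5 of 76 members were called, Rpl10 (−0.33), Rpl7 (−0.26), Rpl37a (−0.26), Rpl24 (−0.25) and Rpl27 (−0.20). That fit called 951 of all 13583 genes, 431 of them lower. The same 5 members were called without KO SHAM 4 alone, in a fit that called 718 genes. Leaving out any 1 of the other 15 libraries left 0 called.

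**Figure D3:**
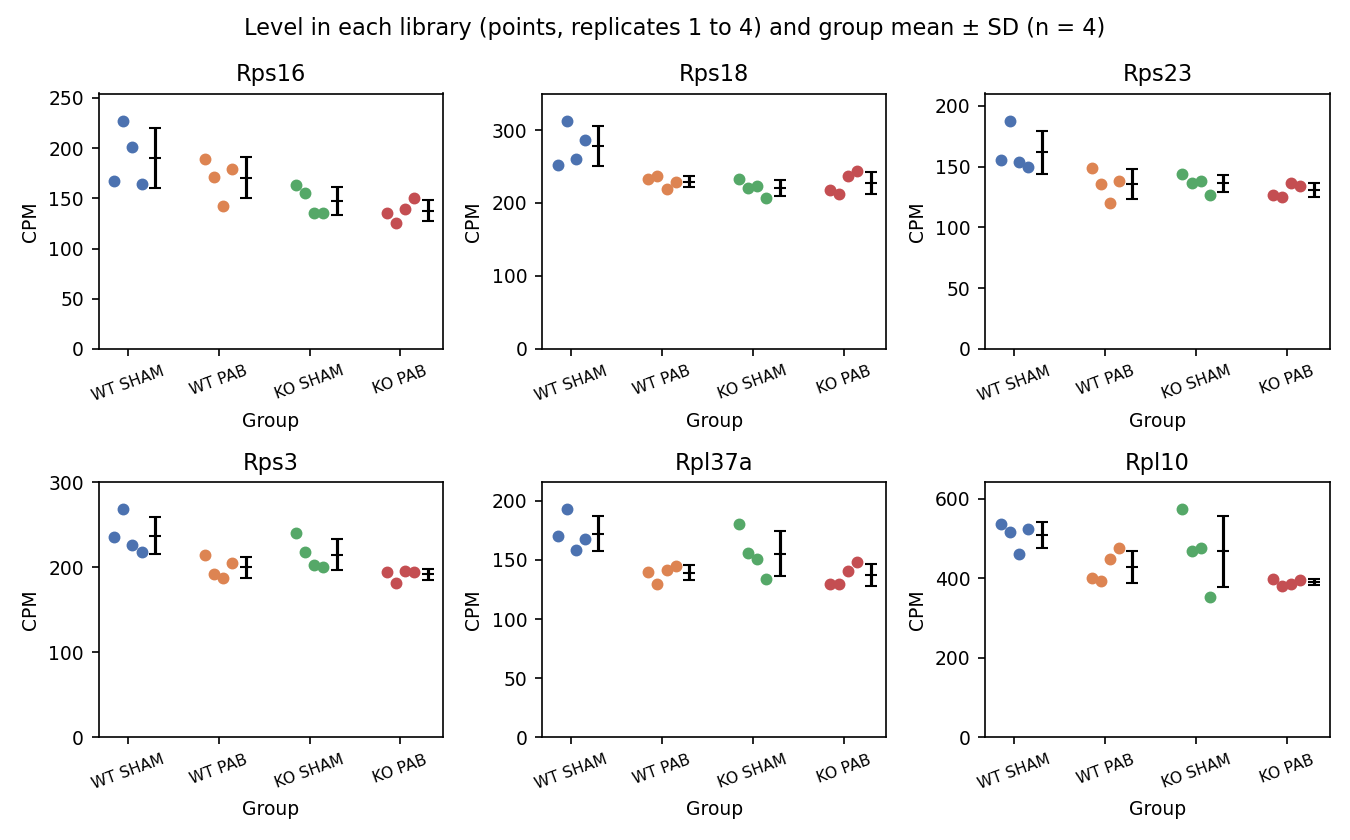
CPM (y axis, from 0) of 6 members in each library (points, replicates 1 to 4 from left to right) of the 4 groups (x axis), with the group mean ± SD (n = 4) in black. Rps16, Rps18 and Rps23 have their highest means in WT SHAM, with Rps18 at 252 to 313 CPM there and at most 243 CPM elsewhere, whereas Rps3, Rpl37a and Rpl10 have lower means in both banded groups.

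Under load, the genotypes were compared in KO PAB against WT PAB, with a member median of −0.04 against −0.003 over all genes and 60 of 76 below 0 (50.8% of all genes). The median rested on single libraries: it was −0.08 without WT PAB 3, −0.02 without WT PAB 4, −0.01 without KO PAB 2 and −0.0009 without WT PAB 1, where 39 were below 0. No member was past the adjusted test in edgeR, DESeq2 or limma-voom (0.00743% of all genes in edgeR). Lower at an unadjusted p below 0.05 were 2 members, Rps16 among them (2.27% of all genes), and no member was free of overlap (1.63% of all genes lower, 1.69% higher). Rps16 was at 189, 171, 142 and 179 CPM in WT PAB and 135, 126, 139.5 and 150.5 in KO PAB, and its log2 fold change was −0.31 (SE 0.12, adjusted p 0.999). For Rps16, 3 of the 4 KO PAB libraries lay below the lowest WT PAB library.

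Averaged over surgeries, the KO minus WT median was −0.10 against −0.01, 74 of 76 were below 0 (53.1% of all genes), and 17 were lower at an unadjusted p below 0.05 (2.39%). The median was −0.07 without the 3 sham libraries, against 0.01 over all genes, 65 were below 0, and 17 were lower at an unadjusted p below 0.05, beside 8.78% of all genes in either direction. The median was −0.06 without KO SHAM 4 alone, and the count of 17 was 8 without KO PAB 2, 9 without KO PAB 3 or WT PAB 1, 10 without KO SHAM 2 and 11 without WT PAB 2. None passed in edgeR (0.00743% of all genes), against 1 with DESeq2, which called 12 of 13458 genes. The averaged KO minus WT value of Rps16 was −0.34 (SE 0.08, adjusted p 0.915). The interaction, banding in KO minus banding in WT, had a member median of 0.13 against 0.01, and 69 of 76 were above 0 (51.4% of all genes). It uses the same WT SHAM libraries as banding in WT and genotype in SHAM, so it is not a separate observation. With edgeR, DESeq2 and limma-voom, 0 members and 0 genes passed the adjusted test of the interaction (0% of all genes). At an unadjusted p below 0.05 there were 2 members with edgeR, Rps18 (0.32, SE 0.12) and the second Rps29 entry, beside 1.76% of all genes. That banding differed between the genotypes was therefore not shown for any single member. Without the 3 sham libraries the interaction median was 0.07, 56 of 76 were above 0, and 4 members had an unadjusted p below 0.05, beside 2.18% of all genes. With single libraries left out, the count of 2 became 8 without WT PAB 1 and 4 without KO PAB 3 or KO SHAM 4.

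Not all members followed the block. For banding averaged over genotypes, 19 of 76 members were above 0 and 57 below (54.7% of all genes were below). Among the 19 were Rps15, the first entry of Rpl36, Rps21 and Rplp2, which belongs to the stalk. The averaged log2 fold changes of these 4 were 0.16 (SE 0.11), 0.27 (SE 0.16), 0.18 (SE 0.11) and 0.11 (SE 0.09), none past the test in edgeR (the lowest adjusted p was 0.334). In all 4, replicate 1 of both banded groups was the highest library of its group. Rpl36 was at 19.8, 15.5, 11.9 and 13.7 CPM in WT PAB and 19.0, 11.4, 9.16 and 11.2 in KO PAB, with replicate 1 highest in each, against 12.0, 10.6, 12.3 and 15.8 in WT SHAM and 9.58, 7.94, 10.1 and 14.1 in KO SHAM. Rps21 was likewise highest in WT PAB 1 and KO PAB 1, and without WT PAB 1 its log2 fold change for banding in WT was −0.08 in place of 0.08.

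Rpl3 varied most of all members and did not follow the block. Rpl3 lies at the peptidyl transferase centre of the large subunit, and its paralog Rpl3l, not a member, is the form of striated muscle. Rpl3 was at 105, 269, 169.7 and 94.2 CPM in WT SHAM, 107, 106, 98.0 and 99.9 in WT PAB, 116, 101, 107 and 163 in KO SHAM and 93.7, 99.6, 162 and 138 in KO PAB. Rpl3l was at 319, 136, 179 and 311 CPM in WT SHAM, 263, 237, 254 and 240.0 in WT PAB, 239.9, 242, 238 and 161 in KO SHAM and 243, 197, 167 and 180.1 in KO PAB. The 3 sham libraries held 163 to 269 CPM of Rpl3 and 136 to 179 of Rpl3l, against 93.7 to 162 and 167 to 319 in the other 13, and they were also the libraries highest in fibroblast and lowest in cardiomyocyte markers. KO PAB 3, the next highest in fibroblast markers (2266 CPM summed), also had high Rpl3 and low Rpl3l. The part of cell makeup in these values was not tested. The log2 fold change of Rpl3 for banding in WT, −0.64 (SE 0.28, adjusted p 0.411), turned to 0.05 without the 3 sham libraries, and that for genotype in SHAM, −0.39, to 0.12. Rpl3l for banding averaged over genotypes was −0.04 (SE 0.16, adjusted p 0.906) with all libraries and −0.31 (adjusted p 0.0390) without the 3.

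**Figure D4:**
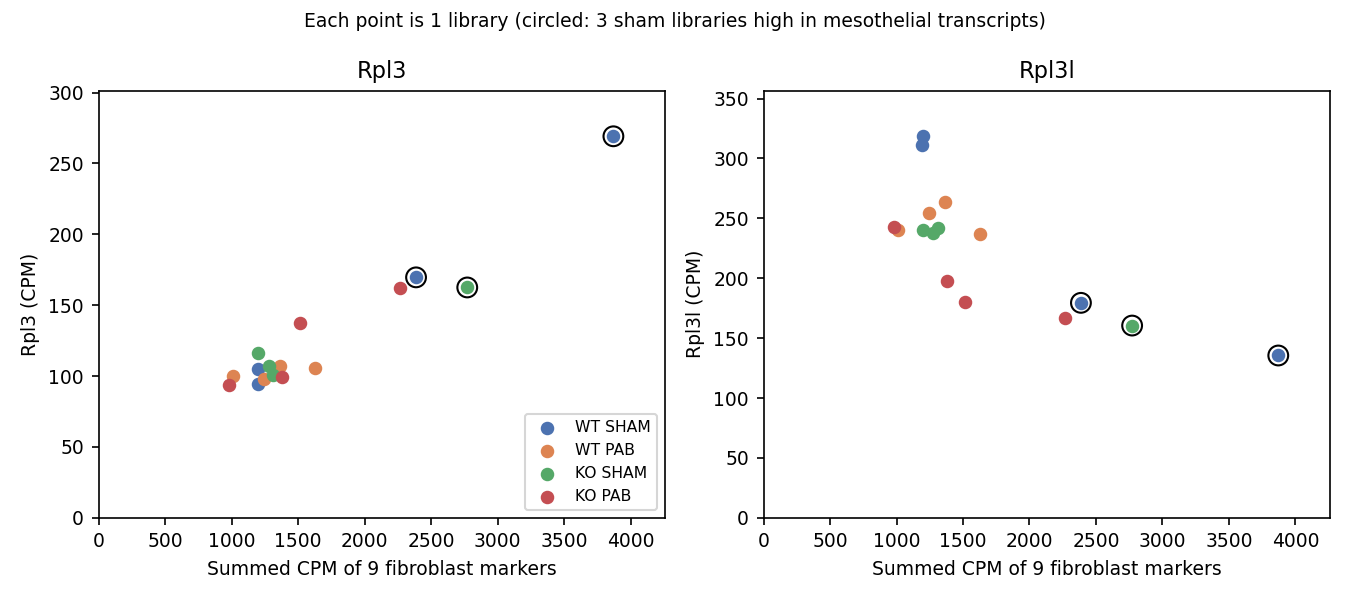
CPM of Rpl3 (left) and Rpl3l (right) on the y axes against the summed CPM of 9 fibroblast markers (x axis), 1 point per library, coloured by group, with the 3 sham libraries circled. Circled libraries have the highest Rpl3, 163 to 269 CPM, and lie at 136 to 179 CPM of Rpl3l.

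The most abundant members by counts were Rplp0 (475 CPM on average over the 16 libraries), Rpl10 (449), Rpl7 (444) and Rps4x (442). The files give no lengths, so the order is one of reads, not of transcripts per length. The lowest were the second Rps29 entry (1.04 CPM), Rpl30 (1.79), Rpl37 (2.88) and the second Rpl32 entry (4.62). For repeated symbols and family members with near copies, the split of reads between entries is uncertain: Rps29 had 135, 119, 108 and 125 CPM in WT SHAM in its first entry and 1.29, 1.58, 1.07 and 1.32 in its second. The second entry gave the largest member values for genotype in SHAM (−0.68, SE 0.21) and for the interaction (0.82, SE 0.29), where the first gave −0.25 (SE 0.08) and 0.17 (SE 0.12). Rpl37, also low, gave −0.47 (SE 0.18) for banding in WT and 0.01 (SE 0.18) in KO. The entries of Rpl32 differed in sign, with −0.16 (SE 0.11) and 0.11 (SE 0.17) for genotype in SHAM. Rpl41, which encodes the smallest ribosomal protein, gave 0.02 (SE 0.08) for banding averaged over genotypes and −0.13 (SE 0.11) for genotype in SHAM.

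Members were also split by the pyrimidine run at the annotated start, with no test of the split. For banding in WT the median was −0.14 over 31 members with a run of at least 5 and −0.15 over 28 with a shorter run or none. For genotype in SHAM the medians were −0.19 and −0.14, with 11 of 31 and 8 of 28 members at an unadjusted p below 0.05, and for the interaction 0.18 and 0.11. The 17 members with no matched window had −0.18 for banding in WT, −0.14 for genotype in SHAM and 0.11 for the interaction. The medians of small and large subunit members were −0.15 each for banding in WT and −0.17 and −0.15 for genotype in SHAM.

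Other genes of ribosome production and translation are given by lists, whose calls are over all tested genes. Of 58 tested ribosome biogenesis genes, 2 rose with banding averaged over genotypes in edgeR and none fell, and their median was 0.05. Of all tested genes 3.24% rose in this comparison, against 3.45% of this list, a share near that background. Rrp12, a factor in maturation and export of the subunits, rose by 1.05 (SE 0.14, adjusted p 0.00187). Its mean was 7.02 ± 0.779 CPM for WT SHAM, 13.4 ± 4.54 for WT PAB, 6.66 ± 1.03 for KO SHAM and 15.1 ± 2.30 for KO PAB (± SD, n = 4), and neither genotype overlapped between surgeries. Bysl, a factor of small subunit assembly, rose by 0.34 (SE 0.09, adjusted p 0.0342). Of 34 tested initiation factors, Eif4g1, the scaffold that joins cap and ribosome (0.33, SE 0.07, adjusted p 0.0155), and Eif5b, which joins the subunits (0.22, SE 0.06, adjusted p 0.0483), rose (5.88% of the list) and none fell, with a list median of 0.03. In the other lists the lowest adjusted p missed the threshold: 0.140 over 13 elongation and release factors (median −0.03), 0.0508 over 30 genes of mTORC1 and TOP control (0.03), 0.186 over 16 genes of MYC and nucleolar stress (0.01), 0.181 over 7 paralogs outside the rule (−0.04) and 0.0753 over 6 ribosome-associated and fused genes (0.05).

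Mitochondrial ribosomal proteins, which build the separate ribosome of that organelle, gave a median of 0.13 for banding in WT and 0.08 for genotype in SHAM over 73 tested genes, where the cytosolic members had −0.15 and −0.15. Both comparisons use WT SHAM, and the list medians are given with all libraries only. Without the 3 sham libraries the cytosolic members had −0.14 and −0.10. For banding in KO and genotype in PAB the mitochondrial list had −0.02 and −0.06, and the cytosolic members −0.03 and −0.04. Of these 73, Mrpl36 (1.37% of the list, beside 3.24% of all genes) rose with banding averaged over genotypes (0.37, SE 0.06, adjusted p 0.00455) and none fell. For genotype in SHAM the lowest adjusted p of each of these lists was 0.996 in edgeR, and the list medians were −0.02 for ribosome biogenesis, 0.05 for initiation factors, −0.11 for the ribosome-associated and fused genes and −0.10 for the paralogs.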

How the data were processed

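Right ventricle RNA of 16 libraries was sequenced from TruSeq stranded mRNA preparations. The deposited values are expected counts of the authors, whole numbers per gene symbol and library; alignment with STAR (2.5.3a) to Rnor_6.0 and counting with RSEM (1.3.0) are named in the submitters' processing notes, and the annotation, strand setting and rounding are not given in the sources used here. Rounding left every value as it was.

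Genes were tested with edgeR 4.0.16 (R 4.3.3): TMM scaling, filterByExpr (min.count 10), and a robust quasi-likelihood fit of the 4 group means over all 16 libraries, with Benjamini-Hochberg adjustment over all 13458 genes and a call at an adjusted p below 0.05. SE is the log2 fold change over the square root of F. CPM use TMM-adjusted totals. Depth of 22168110 to 34718633 counts set the precision of shares. Repeated symbols were kept apart.

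Alternatives were RLE factors, totals without mitochondrial transcripts, limma-voom (limma 3.58.1), DESeq2 1.42.0, no low-count filter, at least 1 CPM in 4 libraries, a replicate block, a fit of only the groups compared, no WT SHAM 2, WT SHAM 3 and KO SHAM 4, and each library left out. Members, lists and tests were chosen with earlier results of these data known.

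Members are named if they passed the test, had 1 of the 3 highest or lowest log2 fold changes in a comparison within a genotype or surgery, 1 of the 4 highest or lowest mean CPM or the 4 largest SD of log2 CPM, had no overlap in both genotypes or both surgeries, carry a repeated symbol, or belong to a set of well-known members. Rps18, Rps23, Rpl27, Rpl27a and Rps2 fall outside this rule and were chosen after their values were seen. Rplp1 and Rpl38 were not among the entries that match the symbol rule. Rpl13 and Rps26 were not analysed here. Some members that entered the counts are not reported by name.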

Additional observations from a re-analysis of the deposited data

Results flagged for a closer look

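In groups of 4 libraries, the highest or lowest value was set against the others by Dixon's ratio of gap to range, with a critical value of 0.829. Of 132 groups examined, 5 exceeded it, where chance alone gives about 5% of groups. Rpl3l in KO SHAM 4 was at 160.5 CPM, below 238 to 242 CPM in the other 3 libraries of the group. Rps3 in KO PAB 2 was at 181.5 CPM, below 194.6 to 195.4 CPM in its group. Rpl41, the gene of the smallest ribosomal protein, was at 321 CPM in WT PAB 1, above 246 to 258 CPM, and at 248 CPM in KO PAB 2, below 275 to 279.9 CPM. Rps15 in KO PAB 1 was at 107 CPM, above 75.5 to 79.1 CPM.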

How the results depend on the processing

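The member medians kept their direction in all 7 comparisons under each of the 9 alternatives other than leaving out 1 library, where it could be fitted, and moved by less than the spread between libraries of a group. Leaving out single libraries, the median for banding in KO ran from −0.07 to 0.02 and was above 0 without KO SHAM 1 or KO PAB 2. In the other 6 comparisons the median kept its direction: it ran from −0.19 to −0.11 for banding in WT, −0.12 to −0.08 for averaged banding, −0.21 to −0.11 for genotype in SHAM, −0.08 to −0.0009 for genotype in PAB, −0.13 to −0.06 for averaged genotype and 0.09 to 0.17 for the interaction. Counting Rpl7a once, added after the data were seen, left each median within 0.01. Counts of calls depended more on the tool. Over all genes, banding in WT called 1 gene, against 108 with DESeq2 and 0 with limma-voom, with only the groups compared and without the 3 sham libraries (0 to 1 without 1 library). Banding in KO called 85 genes, against 509 with DESeq2, 155 with only the groups compared and 344 without the 3 sham libraries (0 to 275 without 1 library). Averaged banding called 685 genes, against 1337 with DESeq2 (356 to 964 without 1 library). Genotype in PAB called 1 gene, against 5 with DESeq2. Averaged genotype called 1, against 12 with DESeq2 and 2 with limma-voom.

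Among members, banding in WT called 0 and DESeq2 1, beside 108 of 13458 genes with DESeq2. Averaged banding called 1 member (685 of 13458 genes), against 5 with DESeq2 (1337 of 13458 genes), among them Rpl10, Rpl37a, Rpl7 and Rps3. It called 5 without the 3 sham libraries (951 of 13583 genes). It called 0 with RLE size factors, without mitochondrial transcripts, with limma-voom and with no filter on low counts (0 to 5 without 1 library). Averaged genotype called 0 and DESeq2 1, beside 12 of 13458 genes with DESeq2. Of 894 alternative values of single genes, 858 kept direction and side of the threshold, 20 lost a call (each for Rpl37a), 3 gained one and 13 changed sign. Changed signs were Rpl3 for banding in WT (0.047) and genotype in SHAM (0.12), Rps15 for banding in WT (−0.058) and Rpl24 for genotype in SHAM (0.072), each without the 3 sham libraries. With 1 library left out, Rps15 ran from −0.023 to 0.13 and was below 0 without WT SHAM 2, WT PAB 1 or WT PAB 2. Rps21 ran from −0.081 (without WT PAB 1) to 0.17. Rpl24 ran from −0.11 to 0.10 and was above 0 without WT SHAM 1 or KO SHAM 4. The second Rpl32 entry for genotype in SHAM ran from −0.025 (without KO SHAM 1) to 0.28. Rpl3l for averaged banding ran from −0.13 to 0.047 and was above 0 without WT SHAM 1 or WT SHAM 4. The causes were not tested.

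The labels do not say whether replicate numbers pair the libraries. Of 24 pairs with the same number, 7 had correlated deviations above 0.1 (range −0.62 to 0.56), and 3 of 16 libraries correlated best with their own number. Such correlations cannot exclude a pairing. With the replicate block, banding in KO called 0 genes in place of 85, and averaged banding 0 members in place of 1.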

Other observations

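Fau, which is no member because its symbol falls outside the rule, encodes a ubiquitin-like protein fused to the small subunit protein Rps30. It was at 68.6, 69.9, 67.1 and 85.9 CPM in WT SHAM, 86.0, 82.0, 69.2 and 68.9 in WT PAB, 57.7, 52.3, 62.6 and 72.4 in KO SHAM and 86.0, 65.3, 63.2 and 71.6 in KO PAB. Like Rps15 and Rpl36, it was lowest in KO SHAM 2 and high in WT PAB 1 and KO PAB 1, and it was not past the test for banding (0.15, SE 0.09, adjusted p 0.343, edgeR) or for genotype in SHAM (−0.25, SE 0.13, adjusted p 0.996). Fau was chosen for this remark after its values were seen.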
